A study of Mus musculus with 6 samples.

Results

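The genes described here encode the ephrins and their Eph receptors, the semaphorins with their plexin and neuropilin receptors, the slits with their Robo receptors, and the netrins with the receptors Dcc, neogenin and Unc5. They were selected by gene symbol in the platform annotation. The symbol pattern matched 71 of the 18193 genes with a probe set of 1 symbol on the array, through 158 of 45037 probe sets. Each gene was read on its brightest probe set by the mean over 6 arrays, and its other probe sets were then inspected. The pattern also took in Plxna4os1, an antisense transcript at the Plxna4 locus, and Unc5cl, a death domain protein related to the Unc5 family, so 69 of the 71 are guidance ligands or receptors.

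Expression was measured in MIN6, a mouse insulinoma line that serves as a beta cell model, on 3 arrays after a scrambled negative control siRNA and on 3 arrays after an siRNA against mouse Hlxb9. Hlxb9, now named Mnx1, is a homeodomain protein needed for motor neuron identity and for beta cell development. Both groups were transfected by nucleofection and a lipid reagent and harvested 72 hours later, and Hlxb9 siRNA transfections were taken to arrays when the western blot showed a loss of the protein above 75%. The labels call the samples sorted subpopulations without naming a gate, and they number the transfections 1 to 3 in each group without saying that equal numbers share a day or culture.

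Guidance molecules steer growing axons by attraction and repulsion, and many of them act again in epithelia, vessels and endocrine tissue. Ephrins are bound to the cell surface and signal in both directions when they meet an Eph receptor on a neighbouring cell. Contact between beta cells through EphA receptors and ephrin-A ligands is known to adjust insulin secretion, and Slit and Robo signalling is known to shape islets. Class 3 semaphorins are secreted and act mostly through neuropilins and plexin-A receptors, whereas the other mouse classes are held at the membrane and mostly bind plexins directly.

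None of the 71 genes passed the test for a difference between Hlxb9 siRNA and control siRNA. Limma, adjusted over all probe sets by the Benjamini-Hochberg method, called 0 probe sets in the whole table (0%), and the smallest adjusted p of a guidance gene was 0.645. Ephrin-B2 (Efnb2) read 1.45-fold lower after Hlxb9 siRNA and semaphorin 5A (Sema5a) 1.5-fold higher, and these were the only differences above 0.5 on the log2 scale. At an unadjusted limma p of 0.05 there were 4 guidance genes (Sema5a, Efnb2, Ntn5 and Epha2), or 5.63%, beside 7.95% of all genes. In direction they were 1 higher, or 1.41%, beside 4.21% of all genes, and 3 lower, or 4.23%, beside 3.74%. Over both directions, the share of guidance genes at that p was thus no higher than the share of all genes. Of the 71, 32 read higher and 39 lower, with a median difference of -0.02, beside a median of 0.0023 over all genes.

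The promoter sequences of Efnb2, Sema5a and Epha5 are shown because the first pair have the smallest p and Epha5 holds TAATTA, the core of many homeodomain sites. Among the 14 genes with the smallest p, no other gene matched in the table holds it in this window (Dcc and Plxna4 were not matched). The table of promoters, from RefSeq on GRCm38.p6, matched 60 of the 71 genes with 76 starts. The windows are the 250 bases before the start at chr8:8661243-8661492 (minus strand) for Efnb2, chr15:32244563-32244812 (plus strand) for Sema5a and chr5:84417383-84417632 (minus strand) for Epha5. Capitals mark the GC box (letters GGGCGG), the CCAAT box and the shorter homeodomain core (letters TAAT). Both strands were searched, and matches may overlap.
Efnb2: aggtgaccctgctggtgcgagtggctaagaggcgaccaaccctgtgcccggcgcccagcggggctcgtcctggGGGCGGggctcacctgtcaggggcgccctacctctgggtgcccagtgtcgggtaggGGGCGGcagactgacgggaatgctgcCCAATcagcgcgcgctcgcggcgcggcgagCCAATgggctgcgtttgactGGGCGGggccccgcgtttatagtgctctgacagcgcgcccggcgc
Sema5a: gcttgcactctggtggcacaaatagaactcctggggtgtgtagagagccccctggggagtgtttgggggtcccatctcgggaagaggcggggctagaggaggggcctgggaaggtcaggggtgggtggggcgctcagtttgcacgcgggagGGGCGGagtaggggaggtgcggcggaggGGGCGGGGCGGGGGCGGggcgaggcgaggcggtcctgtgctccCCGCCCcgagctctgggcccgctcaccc
Epha5: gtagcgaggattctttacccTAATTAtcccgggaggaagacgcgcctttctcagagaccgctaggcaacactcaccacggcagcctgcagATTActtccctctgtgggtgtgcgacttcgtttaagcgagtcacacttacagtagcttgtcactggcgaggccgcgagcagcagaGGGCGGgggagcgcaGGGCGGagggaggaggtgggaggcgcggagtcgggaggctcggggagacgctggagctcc

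Efnb2 holds 3 GC boxes and 2 CCAAT boxes, Sema5a holds 5 GC boxes, and Epha5 holds 2. The shorter core lies 3 times in the Epha5 window, counting both strands of the single TAATTA, and in neither of the other windows. The windows of Efnb2 and Sema5a are each 72.0% G and C. Among the 32851 windows of this length in the table, 4.84% hold the longer core. The shorter core is in 54.9%, the GC box in 32.7% and the CCAAT box in 33.8%. For the 76 windows of guidance genes these shares are 3.95%, 36.8%, 72.4% and 27.6%. These are matches of letters, and binding was not measured.

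Signals are log2 values. The brightness of a probe set among others describes the probe and says nothing of the amount of RNA relative to another gene, since probes differ in affinity. The plot of signals by array shows the 14 genes with the smallest p. Semaphorin 5A, a membrane semaphorin with thrombospondin repeats that can attract or repel axons, read 5.06, 4.71 and 5.03 in control replicates 1, 2 and 3 and 5.43, 5.55 and 5.58 in Hlxb9 siRNA replicates 1, 2 and 3. No control array reached the lowest Hlxb9 siRNA array. The group means were 4.93 ± 0.19 and 5.52 ± 0.08 (SD, n = 3 each), a difference of 0.59 ± 0.13 log2 (moderated SE, 95% interval 0.29 to 0.88, limma adjusted p = 0.645). Its signal was near the middle of the array, brighter than 50.7% of probe sets. The other 3 probe sets of Sema5a, all dimmer, differed by 0.17, 0.16 and -0.14.

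Ephrin-B2, a transmembrane ligand of EphB receptors and EphA4, read 7.21, 7.28 and 6.75 in controls and 6.35, 6.67 and 6.61 after Hlxb9 siRNA. The groups did not overlap, although control replicate 3 was within 0.1 log2 of the highest Hlxb9 siRNA array. The means were 7.08 ± 0.28 and 6.54 ± 0.17 (SD, n = 3 each), a difference of -0.53 ± 0.17 (SE, 95% interval -0.92 to -0.15, limma adjusted p = 0.645). The next brightest probe set of Efnb2 read 6.39, 6.38 and 5.35 in controls and 5.62, 6.04 and 5.92 after Hlxb9 siRNA, so its lowest array was control replicate 3. It differed by -0.18, and the dim remaining pair by -0.03 and 0.03. With the mean of all probe sets, the difference was -0.18 for Efnb2 and 0.20 for Sema5a.

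**Figure D1:**
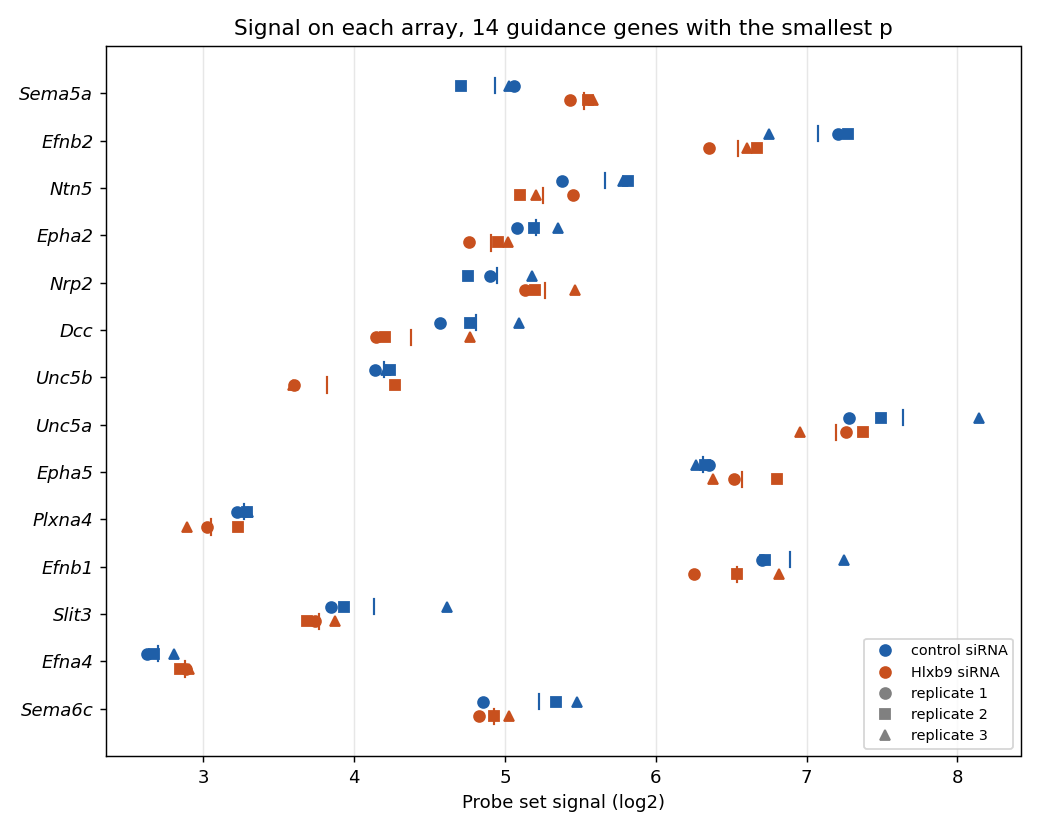
Log2 signal of the 14 guidance genes with the smallest unadjusted p, on each array, with bars at the group means and symbols for the replicate number. Only Sema5a, Efnb2, Epha2, Epha5 and Efna4 show groups that do not overlap, and Sema5a and Efnb2 have the largest differences, 0.59 and -0.53.

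The other ephrin-B ligands also read lower in the mean. Ephrin-B1 (Efnb1) read 6.70, 6.73 and 7.25 in controls and 6.26, 6.54 and 6.82 after Hlxb9 siRNA, a difference of -0.35 ± 0.20 (SE). Its groups overlapped, but within each replicate number the Hlxb9 siRNA array was lower, by 0.446, 0.186 and 0.432 log2. Other Efnb1 probe sets differed by 0.05 and -0.15. Ephrin-B3 (Efnb3) differed by -0.11 ± 0.25 (SE), and by 0.10 without control replicate 3, and had no other probe set. The 4 EphB receptors measured (Ephb1, Ephb3, Ephb4 and Ephb6), all dimmer than the median probe set, differed by -0.11 to 0.11, with Ephb6, the brightest, at -0.09 ± 0.15 (SE).

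The 9 EphA receptors differed by -0.30 to 0.25 (median -0.02), and 6 of them read lower. EphA2, a receptor best known from epithelia, read 5.08, 5.19 and 5.35 in controls and 4.76, 4.95 and 5.02 after Hlxb9 siRNA. The groups were separated by a small gap, and the difference was -0.30 ± 0.12 (SE, limma adjusted p = 0.653). EphA5, described in beta cells as a partner of ephrin-A5, read 6.36, 6.33 and 6.27 in controls and 6.52, 6.81 and 6.38 after Hlxb9 siRNA. All Hlxb9 siRNA arrays were higher, by 0.25 ± 0.13 (SE, limma adjusted p = 0.672), and by 0.13 without Hlxb9 siRNA replicate 2. Another Epha5 probe set, dimmer, had the widest difference of all 158, 0.79 ± 0.31, with controls at 5.02, 3.71 and 4.02 and Hlxb9 siRNA arrays at 5.15, 5.13 and 4.83. Control replicate 1 overlapped the Hlxb9 siRNA arrays there, and the last pair of Epha5 probe sets differed by 0.15 and -0.07. Epha7, the brightest EphA receptor, differed by -0.03 ± 0.12, and by 0.05 without control replicate 3.

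The ephrin-A ligands differed by -0.07 to 0.30. Ephrin-A5 (Efna5), brighter than 85.6% of probe sets, read 10.06, 9.71 and 8.61 in controls and 9.83, 9.72 and 9.72 after Hlxb9 siRNA. A single array, control replicate 3, stood over 1 log2 below the others. The difference was 0.30 ± 0.33 (SE) with that array and -0.13 without it. The other Efna5 probe set, at 4.88, 4.81 and 4.40 against 5.28, 4.86 and 4.83, differed by 0.29 and had its lowest value on the same array. Ephrin-A4 (Efna4) was higher on all 3 Hlxb9 siRNA arrays, by 0.18 ± 0.10 (SE), but on a probe set brighter than only 6.08% of the array. Efna2, also bright, differed by -0.06 ± 0.12.

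Among the semaphorins besides Sema5a, the largest differences were those of Sema3b (-0.31 ± 0.21, SE) and Sema6c. Semaphorin 6C (Sema6c), a transmembrane ligand, read 4.86, 5.34 and 5.48 in controls and 4.83, 4.93 and 5.03 after Hlxb9 siRNA, a difference of -0.30 ± 0.17 (SE), -0.17 without control replicate 3 and -0.48 without control replicate 1. Control replicate 1 lay among the Hlxb9 siRNA arrays. Class 3 semaphorins differed by -0.31 to 0.15. Sema3c, the brightest of them, differed by 0.15 ± 0.23 (SE), and by -0.12 without control replicate 3. Sema3f, the secreted ligand of neuropilin-2, was lower on all 3 Hlxb9 siRNA arrays, with a difference of -0.19 ± 0.12 (SE), and -0.08 without control replicate 3, its highest array. Class 4 semaphorins differed by -0.11 to 0.20. Sema4d, the ligand of plexin-B1, was brighter than 89.5% of probe sets and read 10.43, 10.41 and 9.88 in controls and 9.96, 10.25 and 10.18 after Hlxb9 siRNA. These values overlapped, with control replicate 3 lowest, and the difference was -0.11 ± 0.17 (SE), and -0.28 without that array. Sema7a, which is anchored by a lipid, differed by 0.06 on a dim probe set.

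Plexins were close between the groups. The 9 plexins differed by -0.22 to 0.18, with a median of 0.01. Plxnb2, the brightest, read 9.37, 9.60 and 10.16 in controls and 9.68, 9.51 and 9.47 after Hlxb9 siRNA. Its highest array was control replicate 3, and its difference was -0.16 ± 0.20 (SE) with that array and 0.07 without it. Plxnb1 differed by 0.04 ± 0.16 and Plxna2 by 0.05 ± 0.19. Plxna4, a co-receptor of class 3 semaphorins, differed by -0.22 on a dim probe set and by 0.13 on another. The antisense Plxna4os1 differed by 0.18 ± 0.11 (SE) on a probe set brighter than only 10.8% of the array. Neuropilin-2 (Nrp2), a co-receptor for class 3 semaphorins and VEGF-C, read 4.90, 4.76 and 5.18 in controls and 5.13, 5.20 and 5.47 after Hlxb9 siRNA. The Hlxb9 siRNA array was higher within each replicate number, although control replicate 3 exceeded Hlxb9 siRNA replicate 1. The difference was 0.32 ± 0.15 (SE), and the other Nrp2 probe sets differed by 0.27, 0.27 and -0.01. Neuropilin-1 (Nrp1) differed by -0.25 ± 0.15 on its brightest probe set and by 0.16, 0.03 and 0.39 on the others.

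**Figure D2:**
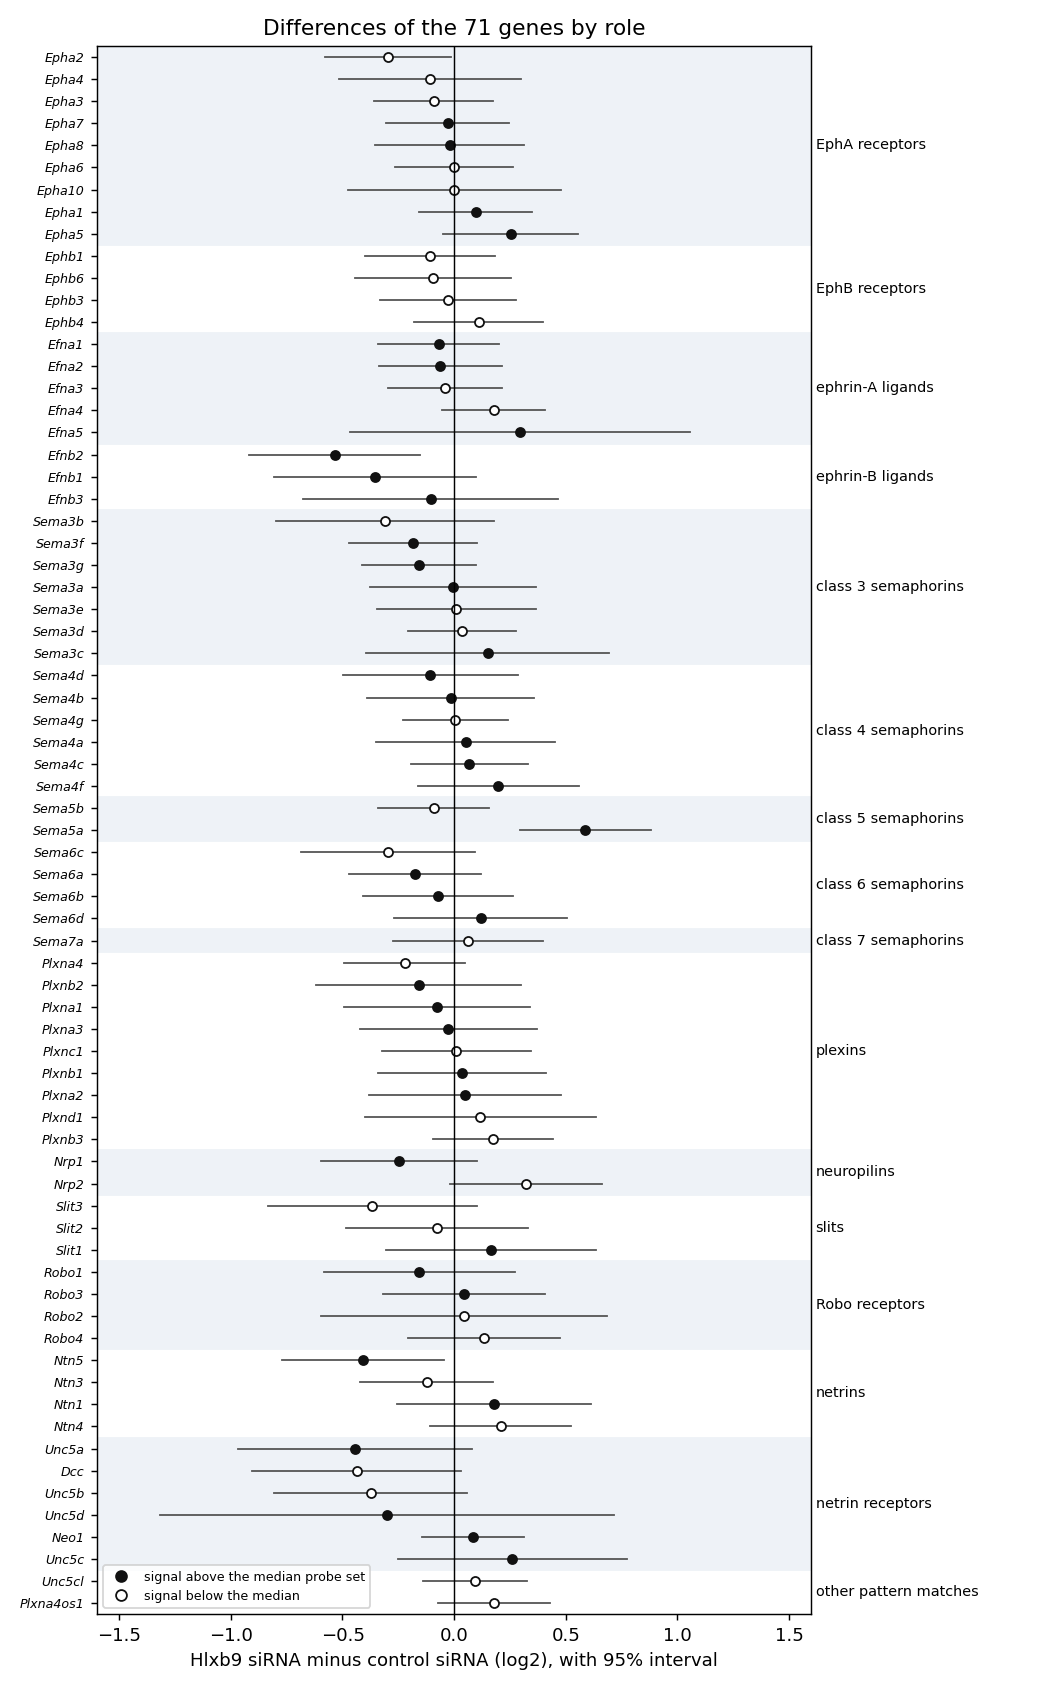
Difference between Hlxb9 siRNA and control siRNA (log2) with its 95% interval for all 71 genes, grouped by role, with filled points for signals above the median probe set. The intervals of Sema5a (0.29 to 0.88) and Efnb2 (-0.92 to -0.15) lie furthest from 0, and that of Unc5d (-1.32 to 0.72) is the widest.

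Slit1, Slit3 and all Robo receptors had their highest or lowest value on control replicate 3. Slit3, a ligand of Robo receptors, read 3.85, 3.93 and 4.62 in controls and 3.74, 3.69 and 3.87 after Hlxb9 siRNA, and its difference was -0.37 ± 0.20 (SE) with control replicate 3 and -0.12 without it. Slit1 read 6.88, 6.65 and 7.46 in controls and 7.19, 7.03 and 7.25 after Hlxb9 siRNA, a difference of 0.17 with all arrays, 0.40 without that array and -0.01 without control replicate 2. The other Slit1 probe set differed by -0.38. Control replicate 3 was the lowest array for all 4 Robo genes. Robo1, the brightest of them, read 9.02, 8.65 and 8.29 in controls and 8.36, 8.62 and 8.51 after Hlxb9 siRNA. Its difference was -0.16 ± 0.18 (SE), -0.34 without that array and 0.03 without control replicate 1, the highest.

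Netrins and their receptors differed more from gene to gene. Netrin-5 (Ntn5), a little studied member of the family, read 5.38, 5.82 and 5.78 in controls and 5.45, 5.10 and 5.20 after Hlxb9 siRNA. The groups overlapped through the arrays numbered 1, and the difference was -0.41 ± 0.16 (SE, limma adjusted p = 0.653). Netrin-1 (Ntn1), the prototype ligand of Dcc, differed by 0.18 ± 0.19 on its brightest probe set, by -0.01 there without Hlxb9 siRNA replicate 2, and by -0.36 on a dim one. Ntn3 and Ntn4, also dim, differed by -0.12 and 0.21.

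The netrin receptor Dcc, which mediates attraction, read 4.57, 4.77 and 5.09 in controls and 4.15, 4.20 and 4.77 after Hlxb9 siRNA. The groups overlapped, but all 3 Hlxb9 siRNA arrays were lower than the control of their number, by 0.421, 0.567 and 0.321 log2. The difference was -0.44 ± 0.20 (SE, limma adjusted p = 0.666), while the other Dcc probe sets differed by -0.03 and 0.14. Unc5 receptors mediate repulsion from netrin. Unc5a read 7.28, 7.49 and 8.14 in controls and 7.26, 7.37 and 6.95 after Hlxb9 siRNA, a difference of -0.44 ± 0.23 (SE) with control replicate 3 and -0.19 without it. Unc5b read 4.14, 4.24 and 4.21 in controls and 3.61, 4.27 and 3.59 after Hlxb9 siRNA, so Hlxb9 siRNA replicate 2 stood with the controls. Its difference was -0.37 ± 0.19 (SE), and -0.44 on the other probe set.

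Unc5c and Unc5d, named after their values were seen, differed between transfections more than between groups. Unc5d read 6.82, 5.80 and 5.75 in controls and 6.73, 5.67 and 5.08 after Hlxb9 siRNA. Both arrays numbered 1 stood about 1 log2 above the rest, and the difference between groups was -0.30 ± 0.44 (SE). Unc5c read 8.59, 7.88 and 8.06 in controls and 8.81, 8.24 and 8.27 after Hlxb9 siRNA, again highest on the arrays numbered 1. Within the numbers Unc5c was higher after Hlxb9 siRNA by 0.22, 0.36 and 0.21, and by 0.56, 0.53 and 0.61 on its other probe set. With the replicate number as a block, limma gave that probe set an adjusted p of 0.482. Neogenin (Neo1), a receptor of netrins and of repulsive guidance molecules, was brighter than 90.5% of probe sets and read 10.30, 10.27 and 10.40 in controls and 10.36, 10.39 and 10.48 after Hlxb9 siRNA. The values overlapped closely and differed by 0.08 ± 0.10 (SE).

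Several probe sets of the same gene often disagreed. Of the 46 guidance genes with several probe sets, 20 had another one whose sign was opposite at a size of at least 0.1 log2, and in 15 all others had the same sign. That size was asked only of the other probe set, so genes such as Plxnc1, at 0.01 on its brightest, were counted. The matching shares of all genes are not given, so these counts say nothing particular to guidance genes. At an unadjusted p of 0.05 there were 15 of the 158 probe sets, 9.49%, beside 7.62% of all probe sets, and 11 of them were not the brightest of their gene. For Neo1, a dimmer probe set read 5.27, 5.76 and 5.53 in controls and 6.05, 6.09 and 6.21 after Hlxb9 siRNA, a difference of 0.60 ± 0.14 (SE) against 0.08 on the brightest. For Sema6d, a dim probe set differed by -0.44 ± 0.11 and the brightest by 0.12. For Nrp1, a probe set nearly as bright as the first differed by 0.39 ± 0.12, with all 3 Hlxb9 siRNA arrays above the controls, against -0.25. Plxna2 differed by 0.38 ± 0.11 on its second probe set and by 0.05 on its first. None of the 158 passed, with a smallest limma adjusted p of 0.645.

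**Figure D3:**
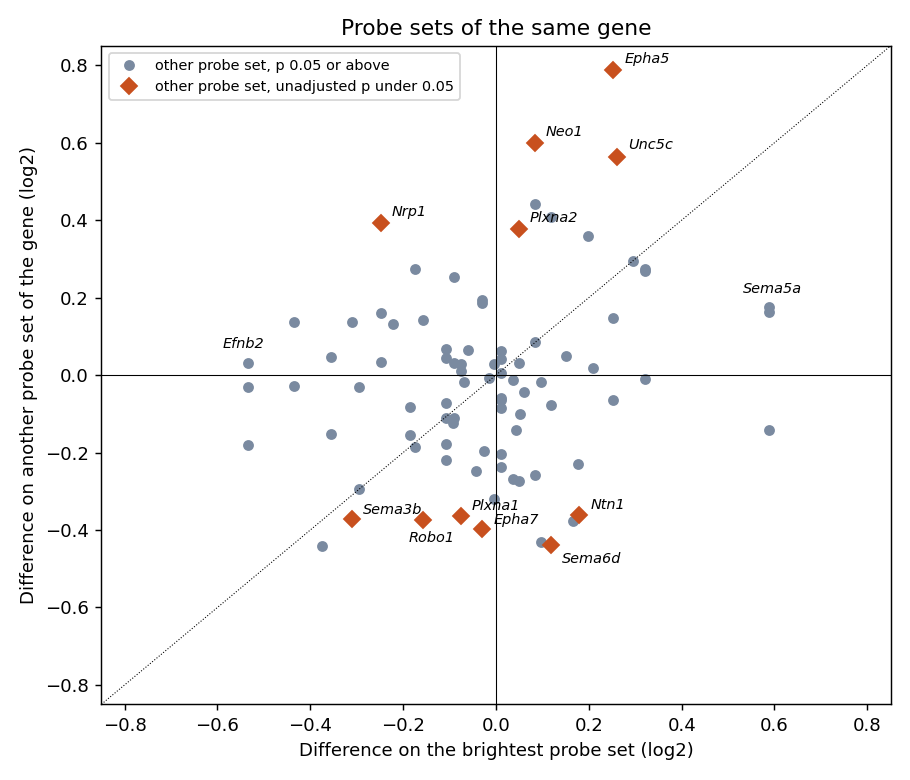
Differences (log2) on the brightest probe set of each gene, across, against those on its other probe sets, upward, for the 46 genes with several, with a dotted line where both are equal. The 11 marked in colour have an unadjusted limma p under 0.05, and those of Nrp1, Ntn1 and Sema6d lie in a quadrant of opposite direction.

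Few guidance genes separated the groups array by array. All 3 Hlxb9 siRNA arrays were above all controls for 4 of the 71 (Sema5a, Epha5, Efna4 and Plxna4os1), or 5.63%, beside 9.55% of all genes. They were below all controls for 3 (Efnb2, Epha2 and Sema3f), or 4.23%, beside 7.75%. Within equal replicate numbers, all 3 differences were upward for 9 genes, 12.7%, beside 19%, and downward for 14, 19.7%, beside 16.5%. With the replicate block, 6 genes had an unadjusted limma p of 0.05 or less (Sema5a, Efnb2, Epha2, Nrp2, Dcc and Efnb1), or 8.45%, beside 9.19% of all genes, and the smallest adjusted p was 0.482. With the block but without both arrays numbered 3, 15 were at that p, 21.1%, beside 14.2% of all genes.

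When limma weighted arrays by how closely they followed the group means, 4 guidance genes passed, 5.63%, beside 2.5% of all genes. They were Sema5a at 0.77 (adjusted p = 0.027), Efnb2 at -0.64 (adjusted p = 0.0357), Ntn5 at -0.59 (adjusted p = 0.0444) and Nrp2 at 0.45 (adjusted p = 0.0496). These weights were 4.46 for control replicate 2 and 2.91 for Hlxb9 siRNA replicate 2, against 0.204 to 0.792 for the other arrays. Unadjusted, 19 guidance genes had a weighted limma p of 0.05 or less, 26.8%, beside 24.6% of all genes. With weights and the replicate block together, 6 passed, 8.45%, beside 5.16% of all genes. With the weights estimated anew on 5 arrays, in each of the 6 possible ways, 0 guidance genes passed. The matching share of all genes is not given for these fits, so that count says nothing particular to guidance genes.

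Control replicate 3 stood apart from the other arrays. It was the highest array for 30 guidance genes and the lowest for 11, together 57.7% of them, beside 58.0% of all genes. Its correlations with the other arrays were at most 0.991, whereas every other array had one of 0.997. Its 3' minus 5' difference for Gapdh, a measure of RNA integrity, was 2.13 log2, against 0.65 to 0.78 on the rest. Without it the differences of 16 of the 71 guidance genes changed sign, 22.5%, beside 20.9% of all genes. The median was then 0.0032, beside 0.027 over all genes, and 10 guidance genes were at an unadjusted limma p of 0.05, 14.1%, beside 10.2% of all genes, with 0 passing. Leaving out control replicate 1 instead also gave 10, beside 9.52% of all genes. Without control replicate 3, Efnb2 differed by -0.70 and Sema5a by 0.63, Efnb1 by -0.18 and Ntn5 by -0.35. The part of RNA quality in these differences was not tested.

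**Figure D4:**
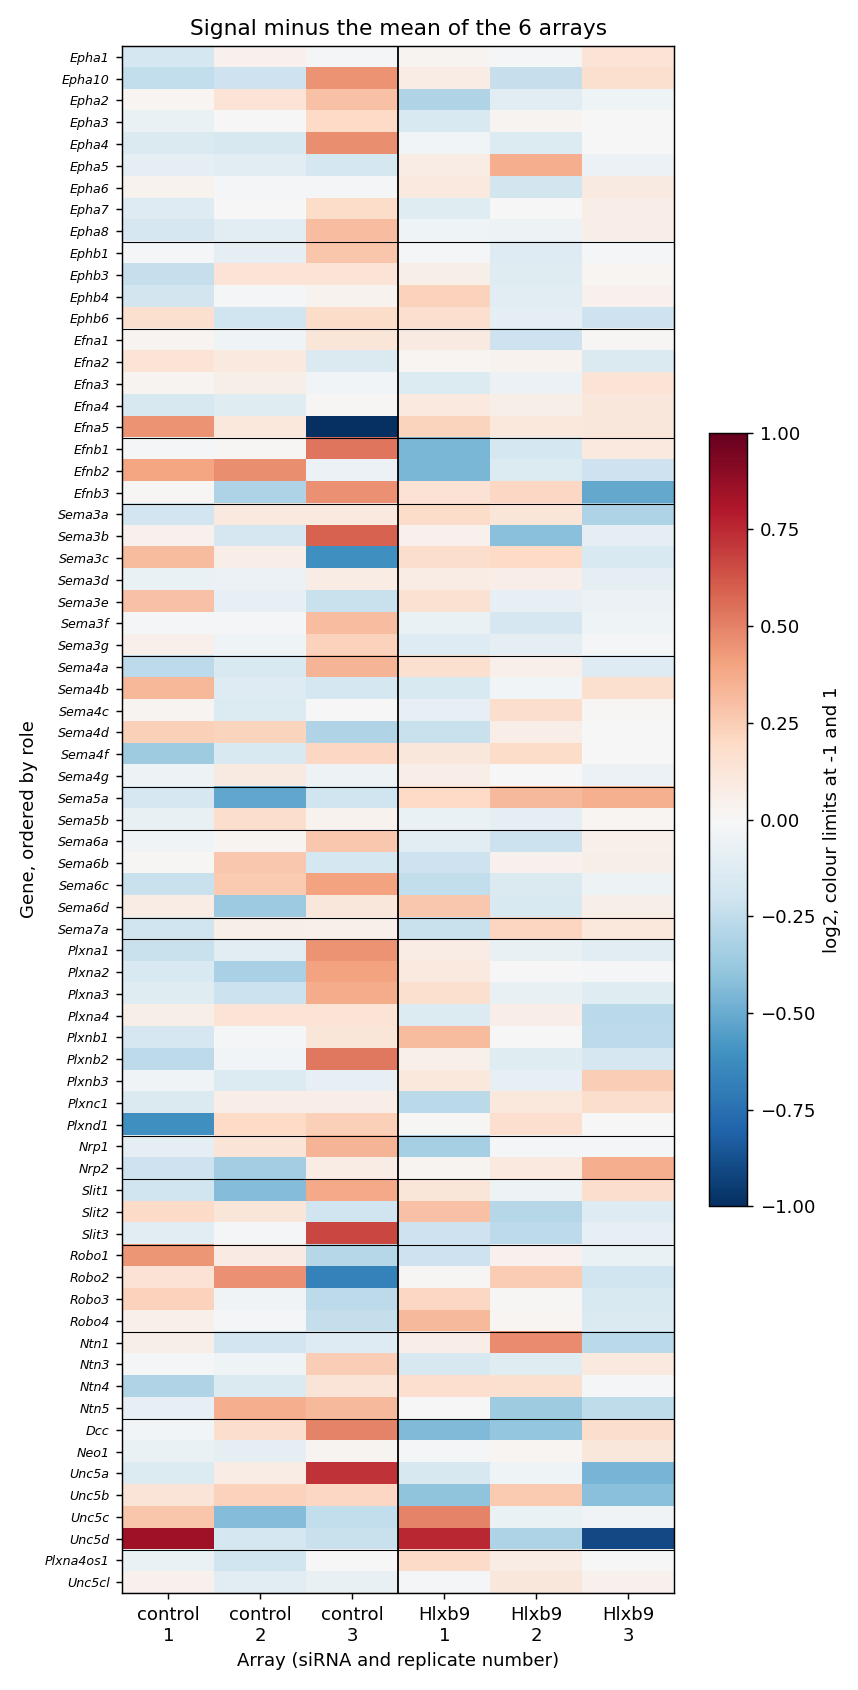
Signal of each of the 71 genes on each array minus the mean of the 6 arrays (log2, colour), in order of role. Control replicate 3 carries several of the strong colours, such as the low Efna5 and Robo2 and the high Unc5a and Slit3. Unc5d, also strong, is high on both arrays numbered 1 and low on Hlxb9 siRNA replicate 3.

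Other genes of these pathways were read from a list of 60 intracellular and accessory genes, 55 of which had a probe set. None passed. At an unadjusted limma p of 0.05 there were 8, 3 higher and 5 lower, or 14.5%, beside 7.95% of all genes, and the median difference was -0.04, beside 0.0023 over all genes. With the mean of all probe sets 4 were at that p, without a matching share of all genes. Of the 55, 46 had signals above the median probe set, 83.6%, beside 62.4% of all genes. The list was chosen with earlier results of these data known. Adam10, a protease that sheds ephrins and other surface proteins, read 11.27, 11.14 and 11.30 in controls and 10.82, 10.80 and 10.85 after Hlxb9 siRNA. All Hlxb9 siRNA arrays were lower, by 0.414 log2 in the mean, but its other 3 probe sets differed by -0.05 to 0.11. Arhgef12, which links plexin-B receptors to RhoA, differed by 0.44 ± 0.13 (SE, other probe sets -0.08 to 0.27). The RhoA effector kinase Rock1 differed by -0.32 ± 0.10 (others -0.16 to 0.09), and the Src family kinase Yes1 by -0.37 ± 0.15 (others -0.07 to 0.03).

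The targeted gene and cell markers were read on the same arrays. Mnx1 read 7.82, 7.50 and 7.77 in controls and 7.53, 7.41 and 7.28 after Hlxb9 siRNA, with overlapping groups and a difference of -0.29 ± 0.13 (SE, limma adjusted p = 0.659). All 7 beta cell markers measured had signals above the median probe set. Some guidance genes are prominent in vessels and neurons. All 6 endothelial markers lay below the median, with summed log2 signals of 21.5 to 22.5 in controls and 20.6 to 21.9 after Hlxb9 siRNA. Of 7 neuronal markers, which beta cells share in part, 6 lay above it, with sums of 68.2 to 70.1 and 69.2 to 70.2. The 5 leukocyte markers summed to 19.5 to 20.7 and 20.4 to 20.6, and all but Cd68 lay below the median. Cd68, a lysosomal protein abundant in macrophages, read 6.77, 7.06 and 6.66 in controls and 7.41, 7.40 and 7.28 after Hlxb9 siRNA, a difference of 0.54 ± 0.13 (SE, limma adjusted p = 0.645). Of the other leukocyte markers, Lyz2 differed by -0.25, Adgre1 by -0.05, Ptprc by 0.10 and Cd3e by 0.15. The 4 markers of other islet cells summed to 39.2 to 41.0 and 39.0 to 42.1, and Ppy, the pancreatic polypeptide gene, read 9.86, 9.68 and 7.32 in controls and 10.95, 10.76 and 8.55 after Hlxb9 siRNA. Ppy was lowest on both arrays numbered 3 and differed by 1.13 ± 0.81 (SE), the highest difference of all genes. In the same list, Gcg differed by -0.12 ± 0.11, Sst by -0.03 ± 0.24 and the ghrelin gene Ghrl by -0.45 ± 0.22 (SE). The part of other cells in the differences was not tested, and in bulk RNA fewer cells of a type and less RNA per cell cannot be told apart.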

How the data were processed

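The labels name biotinylated cRNA from 6 ug of total RNA on an Affymetrix mouse array. The authors deposited log2 probe set signals made with RMA and Partek, per the submitters' processing notes, with no versions. No source names the RMA settings. Array signal has no read depth, and 3 arrays per group limit the precision.

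The 64 control probe sets were removed from 45101. Of 45037 probe sets, 34945 had 1 symbol in the platform annotation, 932 several and 9160 none. Limma 3.58.1 (R 4.3.3, statmod 1.5.0) compared the groups by lmFit and eBayes without covariates, two-sided, adjusted over 45037 probe sets at 0.05, and was checked on simulated data. Differences are Hlxb9 siRNA minus control, with moderated SE. P-values measure the spread between these arrays, treated as separate transfections.

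Named genes are Efnb2, Sema5a, the 14 with the smallest p, the brightest of each role, probe sets that oppose these, and 4 genes of the pathway list. Others were named after their values were seen. Members and lists were chosen with earlier results of these data known.

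Deviations from group means correlated at r = 0.155, 0.165 and 0.202 between equal replicate numbers over all probe sets (at most 0.072 between unequal), so numbers were taken as pairs and used as a replicate block in an alternative. Other alternatives were array centring, repeated quantile normalization, an offset of 32, a filter on dim probe sets, a trend with a robust prior, array weights, leaving out each array, and other probe set rules. Promoter windows came from a RefSeq table.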

Additional observations from a re-analysis of the deposited data

How the results depend on the processing

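Guidance genes called at an adjusted limma p of 0.05 numbered 0 in each unweighted fit that was run, among them the replicate block, both rescalings and the fits without single arrays. With array weights 1132 probe sets and 4 guidance genes passed, 19 guidance genes and 15 of the pathway list were at an unadjusted p of 0.05 (26.8% and 27.3%, beside 24.6% of all genes), and with array weights and the block 6 passed (Dcc and Epha5 in addition), 8.45%, beside 5.16% of all genes. These combined weights, the fit of array weights without each array, the block without the arrays numbered 3 and the exclusion of Plxna4os1 and Unc5cl were chosen after seeing the data. Guidance genes at an unadjusted p of 0.05 ranged from 2 to 10 without single arrays (2.82% to 14.1%, beside 3.74% to 10.2% of all genes) and numbered 15 with the block but without both arrays numbered 3 (21.1%, beside 14.2% of all genes). Those whose groups do not overlap numbered 8 to 22 without single arrays, since fewer arrays separate more easily. They numbered 4 with dim probe sets left out, where fewer genes are counted. The matching shares of all genes are not given for these settings, so the counts say nothing particular to guidance genes. Of the 55 pathway genes, 3 to 8 were at an unadjusted limma p of 0.05 without single arrays, where 8 of 55 is 14.5%. The shares of all genes in these fits were 3.74% to 10.2%. With the mean of all probe sets the pathway genes at that p numbered 4, a setting for which no share of all genes is given. The median difference was -0.07 after centring and 0.0069 with weights, shifts from -0.02 that were smaller than the SD between arrays of 0.0704. The 14 genes with the smallest p kept their direction in each recomputed value, 198 on the same side of the threshold and 4 past it, with array weights. Among the brightest genes of the roles, none of them called, Epha7, Efna5, Sema3c and Plxnb2 changed sign without control replicate 3, Sema7a and Robo1 without control replicate 1, Sema6d and Slit1 without control replicate 2, Epha7 without Hlxb9 siRNA replicate 1, and Sema7a and Ntn1 without Hlxb9 siRNA replicate 2. Epha7 and Ephb6 did so with array weights, and Ntn1, Nrp1 and Slit1 with the mean of all probe sets. The wide interval of Unc5d came from the fit without the replicate block, where its SE was 0.44. With the block on the same arrays, the SE was 0.15.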
